A study of Homo sapiens with 6 samples.

Results

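Aminoacyl-tRNA synthetases join each amino acid to its transfer RNA, the step that supplies the ribosome with charged tRNA. The set described here comprises 33 genes, namely 19 cytosolic enzymes or subunits, 11 mitochondrial enzymes and 3 scaffold proteins of the multisynthetase complex. Genes were chosen by name, as enzymes of this family and its scaffold, and each was represented by the probe set with the highest mean level among those annotated with that gene symbol alone. By this rule 27 of the 33 genes were measured, out of 11963 genes on the array with such a probe set. These were 16 of 19 cytosolic members, 10 of 11 mitochondrial members and 1 of 3 scaffold proteins, AIMP1. MARS1 and QARS1 were represented only on probe sets that also carry another symbol, FARSB, EARS2, AIMP2 and EEF1E1 matched no annotated probe set, and none of these 6 genes is given a value.

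The data are 6 Affymetrix GeneChip arrays of the human neuroblastoma cell line SH-SY5Y, an established line from ATCC with a neuronal character. In 3 cultures the medium was replaced for 1 h with one containing unconjugated bilirubin, the yellow product of haem breakdown, at a free (not albumin-bound) concentration of 140 nM (Bf 140 nM), which was added in dimethyl sulphoxide (DMSO). In the other 3 cultures the medium contained 0.6% DMSO alone (DMSO 0.6%). All cells were of this line, were grown in the same serum-containing medium, came from separate flasks and are described as independent biological replicates, numbered 1 to 3 in both groups. A single line in culture stands here for neurons. Arrays after longer exposure were not analysed here. The values are log2 levels after variance-stabilizing normalization, on which a difference of 1 corresponds to 2-fold, and a level on a probe set cannot be set against the level on another.

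In background, most amino acids have separate nuclear genes for a cytosolic and a mitochondrial synthetase, the latter with names ending in 2. Some cytosolic enzymes are held in the multisynthetase complex, which AIMP1, AIMP2 and EEF1E1 scaffold, while others act on their own. When amino acids run short or unfolded proteins accumulate in the endoplasmic reticulum, phosphorylation of the initiation factor eIF2 favours translation of the transcription factor ATF4. ATF4 pairs with C/EBP proteins on short C/EBP-ATF response elements, and genes of several cytosolic synthetases, amino acid transporters and biosynthetic enzymes are known targets. The comparison at 1 h asks whether levels of these enzymes had changed shortly after contact with bilirubin.

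Promoters of the members were searched for the core letters of the C/EBP-ATF response element, TGATGNAA, read on both strands (TTNCATCA on the other), in RefSeq windows of the GRCh38.p14 assembly that run from 250 bases before to 50 bases after a gene start. Of 35116 such windows, 1270 (3.62%) contained the letters. A window was found for 30 of the 33 members, and LARS1, VARS1 and YARS1 had no entry. The letters were present for 7 of 16 cytosolic genes, 1 of 11 mitochondrial genes and 0 of 3 scaffold genes. The 30 genes had 42 windows, and a gene was counted if any of its windows contained the letters. These counts of genes are therefore not in the same unit as the 3.62% of windows. The stretches are shown because they separate members of the family by a feature that the array values did not enter. Each is 30 bases in the direction of transcription, with the matched letters in capitals.
AARS1, chr16:70289675-70289704, minus strand: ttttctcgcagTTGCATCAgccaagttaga
CARS1, chr11:3057407-3057436, minus strand: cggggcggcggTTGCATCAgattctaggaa
GARS1, chr7:30594834-30594863, plus strand: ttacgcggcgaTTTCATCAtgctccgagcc
IARS1, chr9:92293692-92293721, minus strand: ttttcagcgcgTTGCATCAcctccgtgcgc
MARS1, chr12:57488053-57488082, plus strand: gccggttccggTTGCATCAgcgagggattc
NARS1, chr18:57621804-57621833, minus strand: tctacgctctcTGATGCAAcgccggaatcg
TARS1, chr5:33440956-33440985, plus strand: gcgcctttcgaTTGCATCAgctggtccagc
YARS2, chr12:32756076-32756105, minus strand: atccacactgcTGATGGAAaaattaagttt

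In 6 of the 7 cytosolic genes the match lay close to the start of the gene, from base -33 for GARS1 to base 22 for NARS1, and in AARS1 and YARS2 it began at base -187 and base -197. A match is a description of the letters, not a measured binding site. The 6 measured cytosolic genes with the letters had differences between Bf 140 nM and DMSO 0.6% from -0.04 to 0.02 (log2), with a median of -0.01. The 10 measured cytosolic genes whose windows did not contain them, or that had no window, spanned -0.18 to 0.17, with a median of 0.01.

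The label of the line was set beside marker genes. Of 13 measured noradrenergic neuroblastoma markers, 11 had mean levels between 11.4 and 13.3, including GATA3, DBH and STMN2, and the other two were HAND2 at 7.87 and the catecholamine enzyme TH at 6.49. Of 8 mesenchymal markers, 4 exceeded a level of 10, with VIM at 13.9. Markers of blood and liver lay between 6.17 and 7.38 and those of glia between 7.23 and 7.47. Since levels of different probe sets are not comparable, these values do not decide the cell type. No gene of these lists passed the test between treatments.

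Both replicate 3 arrays stood apart. They correlated at 0.961 to 0.977 with the other 4 arrays and at 0.995 with each other, while the other 4 correlated with one another at 0.993 or more. On these arrays the actin control probe sets read higher at the 3′ than at the 5′ end by 1.49 (Bf 140 nM) and 1.90 (DMSO 0.6%), compared with 0.10 to 0.50 on the other arrays. For GAPDH the same measure was 1.03 and 1.15 against 0.20 to 0.25. Because both groups contain such an array, counts of members called and the largest treatment differences are also given without them.

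No synthetase passed the test between treatments after 1 h, in RNA of whole cultures, where fewer cells expressing a gene and less RNA per cell cannot be told apart. By limma with Benjamini-Hochberg adjustment, 0 of 27 members passed an adjusted p of 0.1, and neither did any other probe set (0% of 22215). At an unadjusted p under 0.05 there were also 0 of 27 members, against 22 probe sets on the whole array (0.099%). In this fit, differences between replicate numbers count as spread within groups. Its 0.099% lies below the share of 0.05 that such a cut-off would pass on average if nothing differed. The fit was therefore a cautious one, and a count of 0 from it does not show that levels were unchanged. With replicate number as a block the counts were 0 of 27 called (0%) and 0 of 27 at an unadjusted p under 0.05 (1.22%). SAM, the test of the study's methods, called 0 members and 0 probe sets. The sign of the difference was divided evenly, positive for 13 members and negative for 14, with 8 against 8 among cytosolic and 5 against 5 among mitochondrial enzymes. Groups did not separate for any of the 27 members, compared with 2.65% of all probe sets (2.06% with Bf 140 nM higher and 0.59% with it lower), so an exact two-sided permutation test could not reach its smallest p of 0.1 for any of them.

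**Figure D1:**
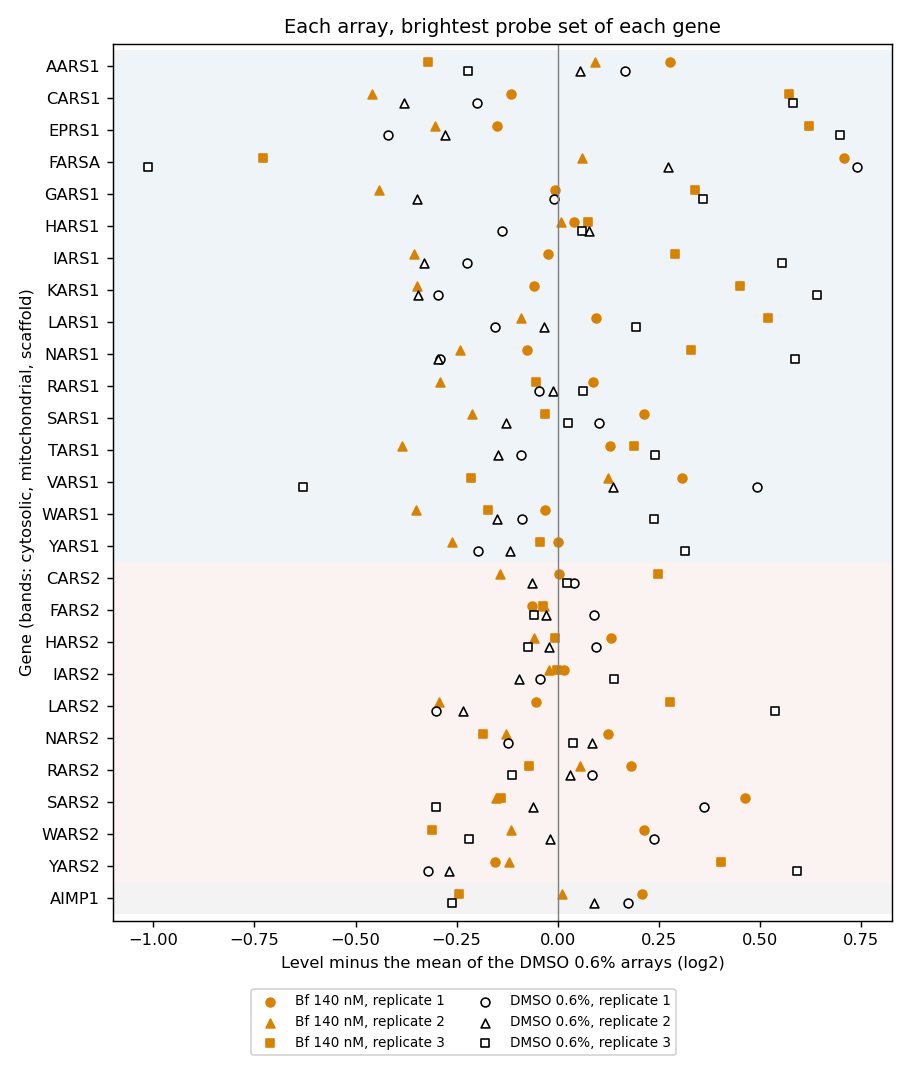
Level of each of the 27 measured genes on each array, minus the mean of the 3 DMSO 0.6% arrays (x axis, log2), with genes on the y axis in bands of cytosolic enzymes, mitochondrial enzymes and AIMP1. Filled orange symbols are Bf 140 nM and open symbols DMSO 0.6%, and the shape gives the replicate number. Orange and open symbols overlap for all 27 genes, and squares of both groups (replicate 3) lie together at the left for FARSA and at the right for CARS1, EPRS1 and KARS1.

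The intervals give the sizes that the arrays could bound. The median size of a difference was 0.04 for members and 0.05 for all genes. The 95% confidence interval stayed within 1.5-fold in either direction for 15 of 27 members (79.5% of all probe sets) and within 2-fold for 26 of 27 (95.4%). FARSA, the alpha subunit of the phenylalanine enzyme, was the exception, with a difference of 0.01 and an interval from -1.29 to 1.32. Members had wider intervals than most probe sets, with a median half-width of 0.44 against 0.31. With replicate number as a block the half-width was 0.20 against 0.19, and 27 of 27 members lay within 1.5-fold (99.9%).

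**Figure D2:**
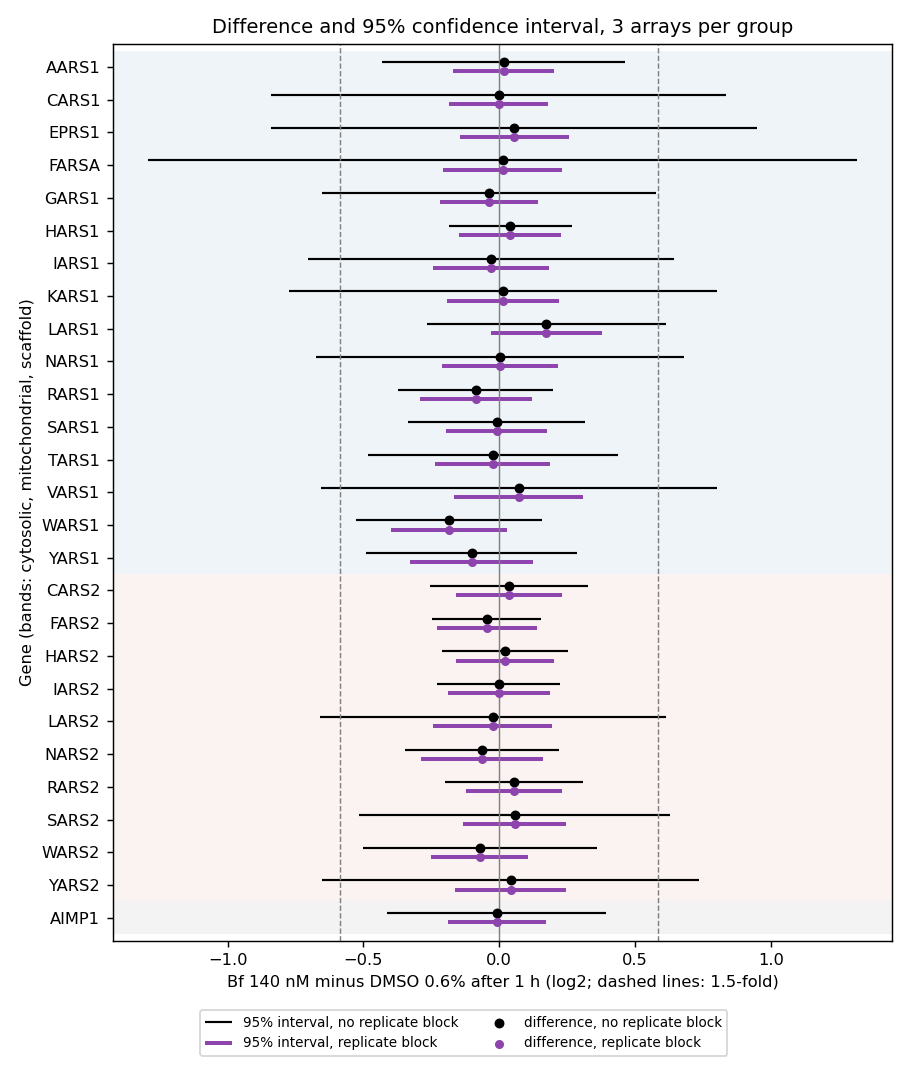
Difference between Bf 140 nM and DMSO 0.6% after 1 h (x axis, log2) for each gene (y axis), with 3 arrays per group. Points are limma estimates and lines their 95% confidence intervals, in black without and in purple with replicate number as a block, and dashed lines mark 1.5-fold. All intervals include 0, and the widest black line is that of FARSA.

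Among cytosolic enzymes of the multisynthetase complex, 5 were measured. LARS1, the leucine enzyme and a leucine sensor for mTORC1 signalling, had the largest positive difference of all members when all arrays were used. Its levels were 10.44, 10.25 and 10.86 on the Bf 140 nM arrays and 10.18, 10.31 and 10.53 on the DMSO 0.6% arrays, in the order of replicates 1 to 3. The groups overlapped, and replicate 3 was the highest in each. The difference was 0.17 (95% confidence interval -0.27 to 0.61; with the block, -0.03 to 0.38), with an adjusted p of 1.00 by limma.

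The remaining complex enzymes lay closer to 0. The arginine enzyme RARS1 had levels of 11.88, 11.50 and 11.73 with Bf 140 nM and 11.74, 11.78 and 11.85 with DMSO 0.6%, a difference of -0.09 (-0.37 to 0.20). EPRS1, which charges both glutamate and proline tRNAs in a single polypeptide, differed by 0.06 (-0.84 to 0.95). KARS1, the lysine enzyme that also serves mitochondria, differed by 0.01 (-0.77 to 0.80), and the isoleucine enzyme IARS1 by -0.03 (-0.70 to 0.64). In EPRS1, KARS1 and IARS1, which had the wider intervals, replicate 3 was the highest in both groups.

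WARS1, the tryptophan enzyme, which is also known as an interferon-induced gene, had the largest negative difference when all arrays were used. Its levels were 10.77, 10.45 and 10.63 with Bf 140 nM and 10.71, 10.65 and 11.04 with DMSO 0.6%. The groups overlapped, and the highest value was that of DMSO 0.6% replicate 3. The difference was -0.18 (-0.53 to 0.16; with the block, -0.40 to 0.03), with an adjusted p of 1.00 by limma. A further probe set of WARS1 gave -0.02 (-0.85 to 0.81).

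YARS1, the tyrosine enzyme, whose fragments act as cytokines, followed with levels of 11.13, 10.87 and 11.09 against 10.93, 11.01 and 11.45, a difference of -0.10 (-0.49 to 0.29). HARS1, the histidine enzyme, was among the steadiest cytosolic members. Its levels were 11.04, 11.01 and 11.07 with Bf 140 nM and 10.86, 11.08 and 11.06 with DMSO 0.6%, a difference of 0.04 (-0.19 to 0.27). Its interval was the narrowest of the cytosolic enzymes. TARS1, which charges threonine tRNA, differed by -0.02 (-0.48 to 0.44) and NARS1, the asparagine enzyme, by 0.00 (-0.67 to 0.68). VARS1, the valine enzyme, which associates with elongation factor 1, differed by 0.07 (-0.66 to 0.80).

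Several synthetase genes are listed by the study among those higher after 24 h of bilirubin, and 5 of these were measured here, on 6 probe sets. They are WARS1, SARS1, CARS1, GARS1 and AARS1, which charge tryptophan, serine, cysteine, glycine and alanine tRNAs. At 1 h, 0 of the 6 probe sets passed the test, and their differences ranged from -0.18 to 0.07 with a median of -0.02. For AARS1 the levels were 10.64, 10.45 and 10.04 with Bf 140 nM and 10.53, 10.41 and 10.14 with DMSO 0.6%, a difference of 0.02 (-0.43 to 0.46). Replicate 3 was the lowest in each group. For SARS1 they were 11.30, 10.88 and 11.06 against 11.19, 10.96 and 11.11, a difference of -0.01 (-0.34 to 0.32).

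GARS1, in which mutations cause a form of hereditary neuropathy and which also supplies mitochondria, had levels of 12.71, 12.27 and 13.05 with Bf 140 nM and 12.71, 12.37 and 13.07 with DMSO 0.6%. Each replicate of one group lay within 0.10 of the same number in the other, while replicates within a group spread by more. Its difference was -0.04 (-0.65 to 0.58; with the block, -0.22 to 0.14). CARS1 behaved in the same manner, at 11.51, 11.17 and 12.20 against 11.43, 11.25 and 12.21, a difference of -0.00 (-0.84 to 0.84; with the block, -0.18 to 0.18). The CARS1 probe set listed for 24 h is a dimmer one, which gave 0.07 (-0.40 to 0.54). Upper bounds of the intervals, the side nearest to a rise, were 0.16 to 0.81 over the 6 probe sets, and 0.03 to 0.26 with the block. Of these 5 genes, 3 had the C/EBP-ATF letters in the stretches printed above (AARS1, CARS1 and GARS1).

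Mitochondrial enzymes, which charge tRNAs encoded by mitochondrial DNA, differed between treatments by -0.07 to 0.06. RARS2, the arginine enzyme, was the only member with a positive difference in all 3 replicate numbers, a pattern that 11.8% of all probe sets showed. Its levels were 6.22, 6.09 and 5.97 with Bf 140 nM and 6.12, 6.07 and 5.93 with DMSO 0.6%, a difference of 0.05 (-0.20 to 0.31). The groups overlapped, and replicate 3 was the lowest in each. Its mean level, 6.07, was the lowest of the mitochondrial enzymes and near that of the lowest blood and liver marker, ALB (6.17). The further RARS2 probe set, 207471_at, gave -0.05, with -0.07, -0.09 and 0.02 in replicate numbers 1, 2 and 3. WARS2, the tryptophan enzyme, was the only member with a negative difference in all 3 numbers (5.83% of all probe sets), with levels of 8.13, 7.80 and 7.60 against 8.15, 7.89 and 7.69 and a difference of -0.07 (-0.50 to 0.36).

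The other mitochondrial enzymes had no common direction. FARS2, for phenylalanine, was nearly level on the Bf 140 nM arrays at 9.02, 9.05 and 9.05, compared with 9.17, 9.05 and 9.02 with DMSO 0.6%, and differed by -0.05 (-0.25 to 0.15). CARS2, for cysteine, had 9.14, 8.999 and 9.39 against 9.18, 9.08 and 9.17 and differed by 0.04 (-0.25 to 0.33). NARS2, for asparagine, had 10.38, 10.13 and 10.07 against 10.13, 10.34 and 10.29 and differed by -0.06 (-0.35 to 0.22). SARS2 (0.06, -0.52 to 0.63) and YARS2 (0.04, -0.65 to 0.73) had wider intervals, as had LARS2 (-0.02, -0.66 to 0.61). IARS2, for isoleucine, lay between 11.86 and 12.09 on the 6 arrays and differed by -0.00 (-0.23 to 0.23).

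HARS1 and HARS2, the cytosolic and mitochondrial histidine enzymes, lie head to head on chromosome 5. Their RefSeq start sites enclose 84 bases (59.5% G or C), chr5:140691371-140691454 on the plus strand of GRCh38.p14, which are printed because both genes are transcribed outward from them.
HARS1 to HARS2: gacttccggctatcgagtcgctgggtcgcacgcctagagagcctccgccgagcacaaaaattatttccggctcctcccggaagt

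Levels of HARS2 were 10.28, 10.09 and 10.14 with Bf 140 nM and 10.24, 10.13 and 10.07 with DMSO 0.6%, a difference of 0.02 (-0.21 to 0.25). Both histidine enzymes thus had intervals within 1.5-fold without the block. AIMP1, the measured scaffold protein and the precursor of a cytokine, had 10.54, 10.34 and 10.08 against 10.50, 10.42 and 10.07 and differed by -0.01 (-0.41 to 0.39). Its replicate 3 value was the lowest in both groups.

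Cytosolic and mitochondrial enzymes were then compared as classes, by description only. The median difference between treatments was 0.00 for cytosolic and 0.01 for mitochondrial enzymes, and 0.01 for all genes. Within replicate numbers 1, 2 and 3 the cytosolic median was 0.16, -0.08 and -0.07, the mitochondrial median 0.08, -0.05 and -0.04, and that of all genes 0.03, -0.01 and 0.02. Both classes were therefore above 0 in replicate 1 and below 0 in replicates 2 and 3. Of the 16 cytosolic enzymes, 14 were positive in replicate 1 (56% of all probe sets), 2 in replicate 2 (48.4%) and 4 in replicate 3 (57.3%). Of the 10 mitochondrial enzymes, 7, 3 and 5 were positive. The cytosolic minus mitochondrial difference of medians was 0.08, -0.03 and -0.03 in the 3 numbers and changed sign between them.

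**Figure D3:**
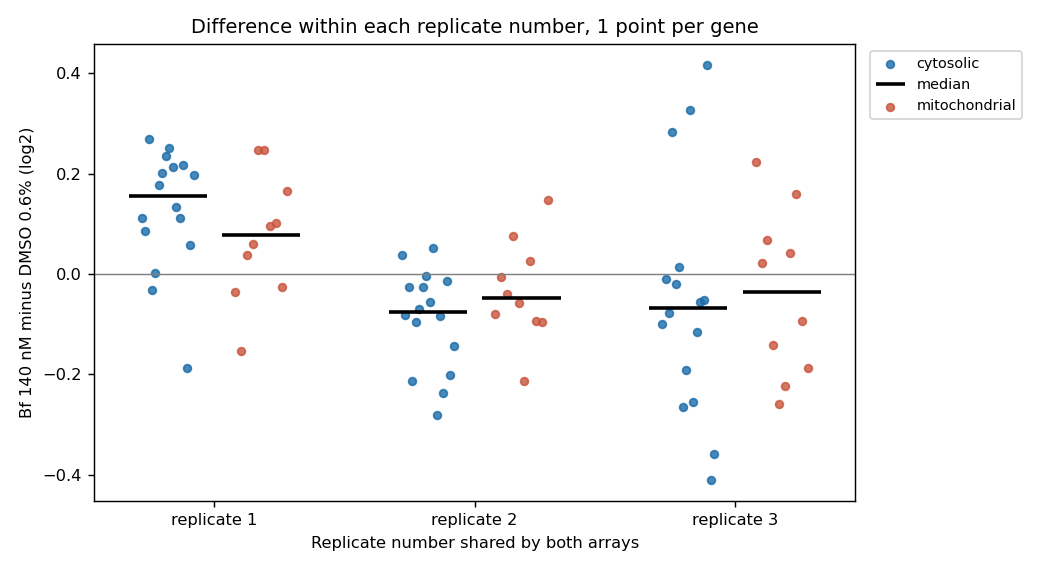
Difference between the Bf 140 nM and the DMSO 0.6% array of the same replicate number (y axis, log2) for each cytosolic (blue, 16 genes) and mitochondrial (red, 10 genes) enzyme, by replicate number (x axis). Black bars are class medians, at 0.16, -0.08 and -0.07 for cytosolic and 0.08, -0.05 and -0.04 for mitochondrial enzymes. AIMP1 is not drawn.

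By catalytic fold, the 13 measured class I enzymes had a median difference of -0.00 (range -0.18 to 0.17) and the 12 class II enzymes 0.01 (-0.06 to 0.06). EPRS1 has a domain of each class and was counted in neither. The 5 complex enzymes had a median of 0.01 and the 11 other cytosolic enzymes -0.00.

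Neighbouring steps of the pathway did not pass the test either. For elongation factors and tRNA delivery, 11 of 17 listed genes were measured, 0 were higher and 0 lower, and the median difference was -0.01. These ran from EEF2, the translocation factor, at -0.10 (-0.46 to 0.27) to GATC, a subunit of the mitochondrial amidotransferase, at 0.13 (-0.71 to 0.98). For tRNA maturation and export, 31 of 44 were measured and none passed in either direction (0 higher, 0 lower). Their median was 0.01, and they ran from RPP40, a subunit of RNase P (-0.12, -0.74 to 0.50), to CDKAL1, which modifies lysine tRNA (0.15, -0.73 to 1.02).

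For the amino acid response, 23 of 26 genes were measured, again with 0 higher and 0 lower and a median of 0.02. ATF4 itself had mean levels of 11.8 and 11.7 in Bf 140 nM and DMSO 0.6%, and differed by 0.05 (-0.35 to 0.46). DDIT3, which encodes the transcription factor CHOP, differed by 0.14 (-0.12 to 0.40), and ASNS, asparagine synthetase, by -0.01 (-0.50 to 0.47). The extremes were ATF3 at -0.09 (-0.65 to 0.47) and the serine synthesis enzyme PSPH at 0.14 (-0.07 to 0.35). None of the genes in the 3 lists reached an unadjusted p under 0.05, nor did any pass with replicate number as a block.

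Many of the enzymes differed between replicate numbers. In a limma model with treatment and replicate number, the moderated F test on replicate number called 17 of 27 members (44.6% of all probe sets) at an adjusted p under 0.1. Among probe sets with a mean at or above the array-wide median, where 25 members remained, it called 16 of 25 members (64%) and 63% of all such probe sets, so a share of members near that of the array was called at these levels. The 17 called without this filter were 12 of 16 cytosolic enzymes, 4 of 10 mitochondrial enzymes (LARS2, SARS2, WARS2 and YARS2) and AIMP1. The cytosolic enzymes that did not pass on their brightest probe set were HARS1, RARS1, WARS1 and YARS1, and a further probe set of WARS1 did pass. Of the 17, replicate 3 was higher in both groups for 10 and lower in both for 6, and SARS1 was the remaining one.

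More members were above than below the mean of replicates 1 and 2 in replicate 3. Over all probe sets, 28.2% were higher and 48.9% lower in replicate 3 of both groups, whereas 16 of 27 members were higher and 8 lower. The median level of the replicate 3 arrays was itself lower, at 7.78 (Bf 140 nM) and 7.73 (DMSO 0.6%), against 7.94 to 7.97 on the other arrays. Departures, their signs and the shares of all probe sets were not adjusted for these medians, and signs of small departures depend on them. Shares among probe sets of like level are not given for these directions. Among cytosolic enzymes 12 of 16 were higher and 3 lower, and among mitochondrial enzymes 4 of 10 were higher and 4 lower. The median departure of cytosolic enzymes was 0.20 with Bf 140 nM and 0.36 with DMSO 0.6%, compared with -0.02 and -0.03 for mitochondrial enzymes and -0.03 and -0.07 for all genes. Within groups, the median SD was 0.32 for cytosolic enzymes, 0.14 for mitochondrial enzymes and 0.16 for all genes. Cytosolic probe sets had mean levels of 9.80 to 13.3 and mitochondrial ones of 6.07 to 11.95, and the contrast between classes was not tested.

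The members that differed most between replicate numbers were FARSA, CARS1, EPRS1 and KARS1. FARSA had 10.65, 10.00 and 9.21 with Bf 140 nM and 10.68, 10.22 and 8.93 with DMSO 0.6%, with replicate 3 the lowest in both (limma adjusted p = 3.3e-06). CARS1, whose values are given above, was higher in replicate 3 by 0.86 and 0.87 in the 2 groups (adjusted p = 2.7e-05 by limma). EPRS1 had 11.41, 11.26 and 12.18 against 11.14, 11.28 and 12.26, with replicate 3 the highest in both (limma adjusted p = 3.7e-05). KARS1 had 13.19, 12.90 and 13.70 against 12.95, 12.90 and 13.89 and showed the same order (limma adjusted p = 0.00015).

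At the other end, on the brightest probe set of each gene, were NARS2, FARS2, HARS1 and IARS2, with limma adjusted p values of 0.89, 0.89, 0.65 and 0.61. On these probe sets HARS1 was the only cytosolic enzyme among the 4 members that varied least between numbers. FARS2 as a gene was not steady, since its probe set 204282_s_at was higher in replicate 3 by 0.71 with bilirubin and 0.79 with DMSO. Its probe set 215414_at was not called between numbers (limma adjusted p = 0.55). For 10 amino acids both forms were measured. On the brightest probe set of each gene, leucine and serine enzymes differed between numbers in both compartments. Phenylalanine, isoleucine, asparagine and cysteine enzymes did so in the cytosolic form alone, and tryptophan and tyrosine enzymes in the mitochondrial form alone. Histidine and arginine enzymes differed in neither. Further probe sets went against this split. FARS2 204282_s_at (limma adjusted p = 0.0001) and WARS1 200628_s_at (limma adjusted p = 3.2e-05) were called, and LARS2 204016_at (limma adjusted p = 0.37) was not. The difference between the forms of an amino acid was not tested.

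The share called was 44.6% over all probe sets and 63% over those at or above the median level. Beside this, 4 of the 5 complex enzymes were called, each with replicate 3 higher in both groups on its brightest probe set. Direction depended on the probe set, since EPRS1 200841_s_at was also called and was lower in replicate 3 of both groups. Of the 11 other cytosolic enzymes 8 were called, with replicate 3 higher for 4. Of all probe sets, called or not, 28.2% were higher and 48.9% lower in replicate 3 of both groups. Shares by direction among called probe sets are not given. The 6 measured cytosolic genes with the C/EBP-ATF letters were all called between numbers, as were 6 of the 10 others, and direction was not shared, since AARS1 was lower and CARS1, GARS1, IARS1, NARS1 and TARS1 were higher in replicate 3. With the same shares as background, the test called 9 of 11 elongation and delivery genes, 17 of 31 tRNA maturation genes and 17 of 23 amino acid response genes. It also called 12 of 13 noradrenergic and 5 of 8 mesenchymal markers, and 0 of the 5 blood and liver and 0 of the 3 glial markers.

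Without both replicate 3 arrays, limma called between replicates 1 and 2 8 of 27 members (12.5% of all probe sets). These were CARS1, FARSA, GARS1, SARS1, TARS1, VARS1, SARS2 and WARS2, all of them lower in replicate 2 in both groups. For SARS2, the mitochondrial serine enzyme, replicates 1 and 2 were at 8.62 and 7.999 with Bf 140 nM and at 8.51 and 8.09 with DMSO 0.6% (limma adjusted p = 3.6e-05), and replicate 3 was at 8.01 and 7.85. Replicate 2 was below replicate 1 in both groups for 18 of 27 members (33.8% of all probe sets) and above it for 1 of 27 (29%), YARS2. Shares among probe sets of like level are not given for these counts, so no excess particular to the members can be read from them.

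**Figure D4:**
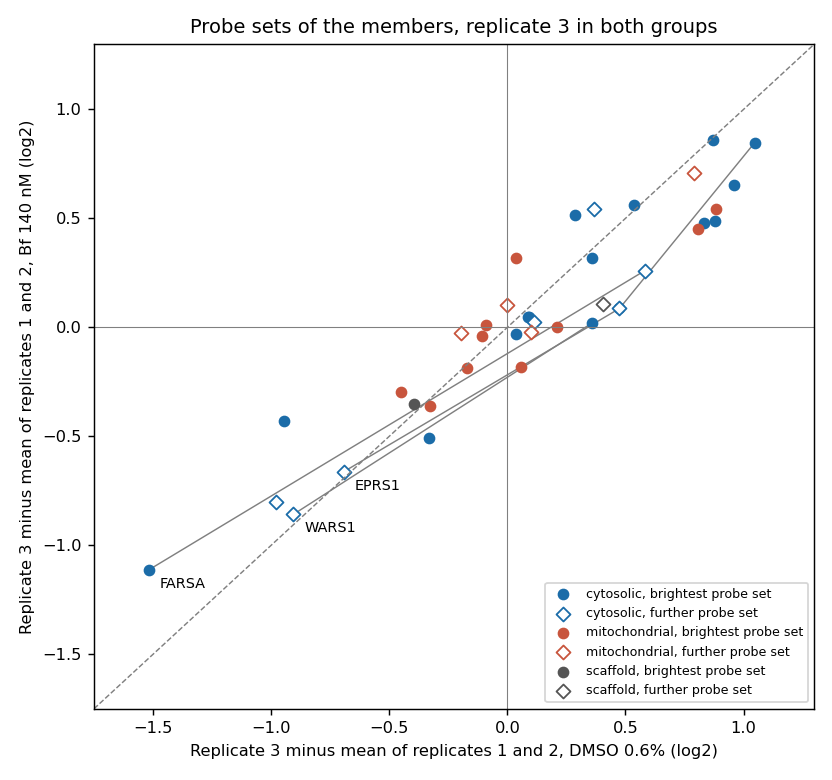
Replicate 3 minus the mean of replicates 1 and 2 in DMSO 0.6% (x axis, log2) and in Bf 140 nM (y axis, log2) for the 39 probe sets of the measured genes, filled for the brightest probe set of a gene and open for further ones, with the dashed line at equality. Points lie along the line, from FARSA at -1.52 and -1.11 to EPRS1 at 1.05 and 0.85, and grey lines join the probe sets of EPRS1, FARSA and WARS1, which reach both sides of 0.

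Of the measured genes, 10 had further probe sets with a single symbol, which gave 39 probe sets in all. The departure of replicate 3 had the same sign in both groups for 34 of 39 (77.1% of all probe sets), and over these 39 probe sets, which share the same 6 arrays, the departures in the 2 groups correlated at r = 0.94 (0.88 over all probe sets). Of the 39, 25 were called between numbers (44.6% of all probe sets, 63% of those at or above the median level). Replicate 3 was higher in both groups for 15 of these 25 and lower for 9, while of all probe sets, called or not, 28.2% were higher and 48.9% lower. These directions too were not adjusted for the lower medians of the replicate 3 arrays.

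Probe sets of the same gene nevertheless disagreed on the direction of replicate 3. Averaged over both groups, the sign differed in 6 of the 10 genes (AIMP1, EPRS1, FARS2, FARSA, RARS2 and WARS1). In EPRS1 and FARSA, probe sets that each passed the test went opposite ways. The EPRS1 probe set 200841_s_at had 9.89, 9.65 and 9.10 with Bf 140 nM and 9.75, 9.81 and 9.09 with DMSO 0.6%, with replicate 3 the lowest, whereas on the brightest, 200842_s_at, it was the highest.

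For FARSA the brightest probe set, 216602_s_at, was lowest in replicate 3, while 202159_at had 10.13, 9.49 and 10.07 against 9.81, 9.55 and 10.26. The gap between these probe sets was 1.74 for FARSA and 1.63 for EPRS1. For WARS1, 200628_s_at had 10.43, 10.31 and 9.51 against 10.37, 10.44 and 9.50, a drop in replicate 3 that 200629_at did not show, with a gap of 1.07. The 3′ minus 5′ values of the actin and GAPDH controls were also higher on both replicate 3 arrays, and their relation to these departures was not tested.

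**Figure D5:**
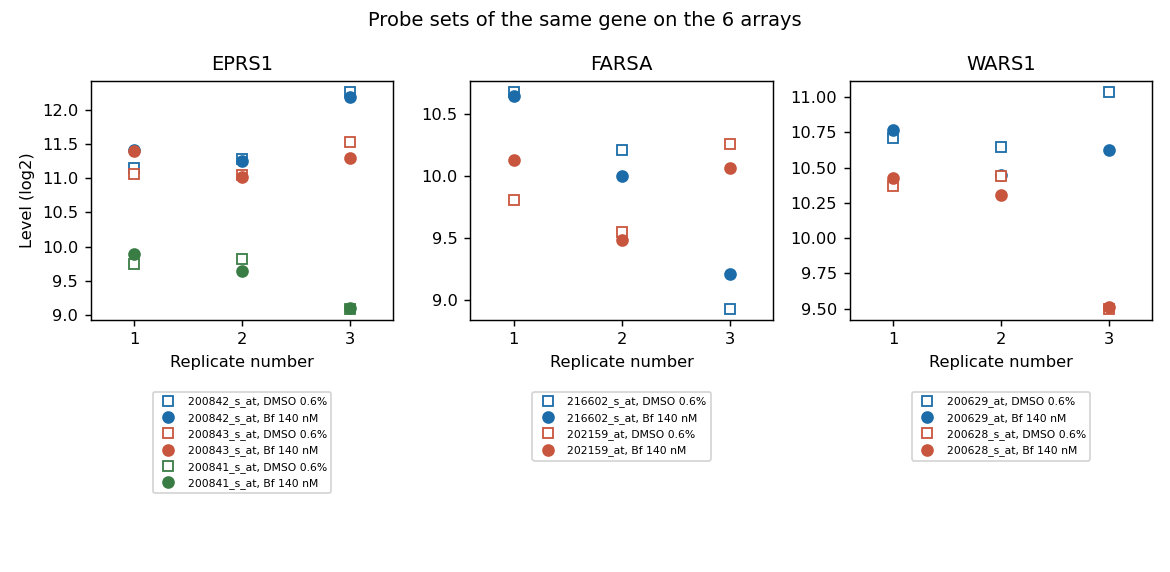
Level (y axis, log2) of each probe set of EPRS1, FARSA and WARS1 on the 6 arrays, by replicate number (x axis), with filled circles for Bf 140 nM and open squares for DMSO 0.6% and a colour for each probe set. In replicate 3 the EPRS1 probe sets spread from 9.10 to 12.18 with Bf 140 nM, and both probe sets of FARSA change order.

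For the difference between treatments, the sign also differed between probe sets in 6 of the 10 genes, though by far smaller amounts. The widest gap was that of VARS1, at 0.20, with 0.07 (-0.66 to 0.80) on its brightest probe set and -0.13 (-0.96 to 0.71) on the other. RARS2 followed with a gap of 0.10, CARS1 with 0.08 and KARS1 with 0.07. None of these probe sets passed the test.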

How the data were processed

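Total RNA from 6 cultures (3 Bf 140 nM, 3 DMSO 0.6%, 1 h) was labelled and hybridized to Affymetrix GeneChip arrays. The authors extracted cell intensities with GCOS, applied VSN in R 2.5.0 (per the submitters' processing notes) and deposited log2 values, 1 column per array. Base 2 was taken from the VSN method. The probe summarization and the set of arrays normalized together are not given in the sources used here. The methods' Present-call filter was not part of these values. The number of arrays limits the precision.

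Of 22277 probe sets, 62 controls were removed and 22215 tested, with no filter. Names came from GEO's platform annotation (19064 probe sets with 1 symbol, 1043 with several, 2108 with none). Checked against RefSeq, 0 symbols needed an update. Fits used limma 3.58.1 in R 4.3.3 (lmFit, eBayes, Benjamini-Hochberg over all probe sets, adjusted p under 0.1), and SAM used all 20 label permutations. The scripts were tested on simulated data. Groups followed the sample titles. After subtraction of group means, arrays sharing number 1, 2 or 3 correlated at 0.725, 0.783 and 0.880 over all probe sets. Deviations cancel within a group, so the shared departure of replicate 3 also raises the values for numbers 1 and 2. These values alone therefore cannot show that numbers 1 and 2 pair the samples, and correlations between unlike numbers are not given. Without both replicate 3 arrays, limma called 12.5% of probe sets between replicates 1 and 2 with treatment in the model. The sources do not say what a number marks. The block was an alternative because the methods name no pairing.

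The members, lists and tests were chosen with earlier results of these data known, and the grouping into complex enzymes, fold classes and the test between replicates 1 and 2 were added after values were seen. Marker lists (noradrenergic, mesenchymal, blood and liver, glia) had median differences of -0.01, -0.05, 0.08 and 0.02. Genes given full statistics were those in the study's 24 h list, those with a cytosolic and a mitochondrial form, the 4 with the smallest p in each direction, the 4 with the smallest and the 4 with the largest p between replicate numbers, and genes whose probe sets differed in sign. Alternatives were SAM, other thresholds, the block, array weights, trended robust eBayes, the mean of a gene's probe sets, equal array medians, quantile normalization, a lower limit on mean level (median or lower quartile) and leaving out each array. Leaving out both replicate 3 arrays was chosen after seeing the data.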

Additional observations from a re-analysis of the deposited data

How the results depend on the processing

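In all 18 alternatives, 0 members were called between treatments, and the smallest adjusted p of a member by limma was 0.97, without DMSO 0.6% replicate 3. With the replicate block the count was also 0, and the block changed no call. The sign of the difference, which no test called, changed for 0 to 10 members under other settings, for 5 to 14 when an array was left out and for 11 without both replicate 3 arrays. Without both, the difference was 0.10 for LARS1 (0.17 with all arrays), -0.07 for WARS1 (-0.18) and 0.03 for YARS1 (-0.10). The most positive member was then YARS2 at 0.16 and the most negative FARSA at -0.12. Leaving out an array moved the cytosolic median between -0.13 and 0.11, the mitochondrial median between -0.04 and 0.06, AIMP1 between -0.14 and 0.11 and the cytosolic minus mitochondrial difference between -0.13 and 0.092, so neither class had a settled sign. The number of members that differed between replicate numbers was 15 to 19 when an array was left out, 16 to 21 under other settings (21 with equal array medians, 77.8% against 49.5% of all probe sets, and 16 of 25 with the filter at the median, 64% against 63%) and 8 without both replicate 3 arrays, since that test spans only replicates 1 and 2. The filters left 25 and 26 of the 27 members, and the array weights stopped before convergence. With 3 arrays per group, a change within the interval given for a gene was not excluded, and the median interval was narrower with the block.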
